A study of Neurospora crassa with 24 samples.

Results

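A set of 9 genes of Neurospora crassa for the uptake of ammonium and its conversion into glutamate and glutamine were followed through the germination of conidia, the asexual spores of this fungus. They were chosen by identifier from the 9730 listed for each of 2 media. The set holds the NADP and NAD glutamate dehydrogenase genes am (NCU01195) and gdh-1 (NCU00461), the glutamate synthase gene en(am)-2 (NCU01744), the glutamine synthetase genes gln-1 (NCU06724) and gln-2 (NCU04856), and 4 ammonium permease genes that have no symbol in the gene reference (NCU03257, NCU05843, NCU06613 and NCU01065).

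Conidia of the wild-type mat A strain FGSC2489, all from cultures grown on Bird medium, were spread on cellophane over maple sap medium (MSM) or Bird medium (BM) and kept under constant white light. MSM is a natural medium of maple sap and agar that is very poor in nitrogen, and BM is a synthetic medium rich in nitrogen. RNA was taken on each medium at 15, 120, 240 and 360 min after inoculation, called stages 1 to 4, with 3 libraries per medium and stage and 24 in all. The times were set by the morphology of spores on BM, namely fresh spores, polar growth, doubling of the long axis and the first hyphal branch, so that on MSM a stage is a sampling time. Each replicate joined tissue of several plates, and the replicates were prepared at separate times. Effects of the medium and of developmental timing cannot be told apart in this design.

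Ammonium enters fungal cells through permeases of the plasma membrane. Inside the cell the NADP glutamate dehydrogenase joins it to alpha-ketoglutarate to form glutamate, and glutamine synthetase adds another ammonium to glutamate to form glutamine. Glutamate synthase returns glutamine and alpha-ketoglutarate to glutamate. The NAD glutamate dehydrogenase runs mainly in the other direction and releases ammonium when amino acids serve as a carbon source. Glutamate and glutamine donate nearly all nitrogen for the other amino acids and for nucleotides, and fungi adjust these genes to the nitrogen and carbon at hand.

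The deposited value is a relative level estimated by LOX, a program that derives expression levels from the read tallies of several libraries together. For each gene and medium the stage with the lowest level is set to 1 and the others are ratios to it, each with a 95% interval. The 3 replicates are pooled in it, so there is 1 value per stage and no value per library. A comparison of levels holds only between the stages of 1 gene on 1 medium, and neither across genes nor across media. An SE of the log2 level was taken from the interval, and it ran over the 9 genes from 0.0014 to 0.0556 on MSM and from 0.0015 to 0.083 on BM, against a median over all genes of 0.0193 on MSM and 0.0212 on BM. Replicate spread may exceed what this SE covers, and read depths per library were not used here. The median gene changed between consecutive stages by 0.02, -0.04 and 0.15 on the log2 scale on MSM and by -0.37, 0.42 and -0.30 on BM. Log2 changes are therefore given as the excess over the median gene in that step, and a gene was called higher or lower at a Bonferroni adjusted p below 0.01 over all genes tested in a two-sided z test. All 9 genes had intervals above 0 at every stage on both media, so none was lost to a filter on low values.

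From stage 1 to stage 4, most of the 9 genes gained transcript relative to the median gene. On MSM 8 of the 9 genes were higher and 1 lower at stage 4, where 41.7% of all tested genes were called higher and 40.4% lower. The smallest of these rises on MSM was that of am, at 0.09 in log2. On BM 6 were higher, 2 lower and 1 not called, against 39.6% higher and 38.4% lower over all genes. The BM count was the same on the deposited scale, where 29.1% of all genes were higher and 48.6% lower. The median of the 9 genes was 1.59 on the log2 scale on MSM and 1.56 on BM. At least 2-fold higher were 6 genes on MSM and 6 on BM, and 1 gene, gln-1, was at least 2-fold lower on MSM. The share of all genes with a change of at least 2-fold in either direction, rises and falls together, was 52.3% on MSM and 38.3% on BM. For rises alone, the upper quartile of all genes was 1.06 on MSM and 0.74 on BM, where a 2-fold rise is 1 in log2.

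**Figure D1:**
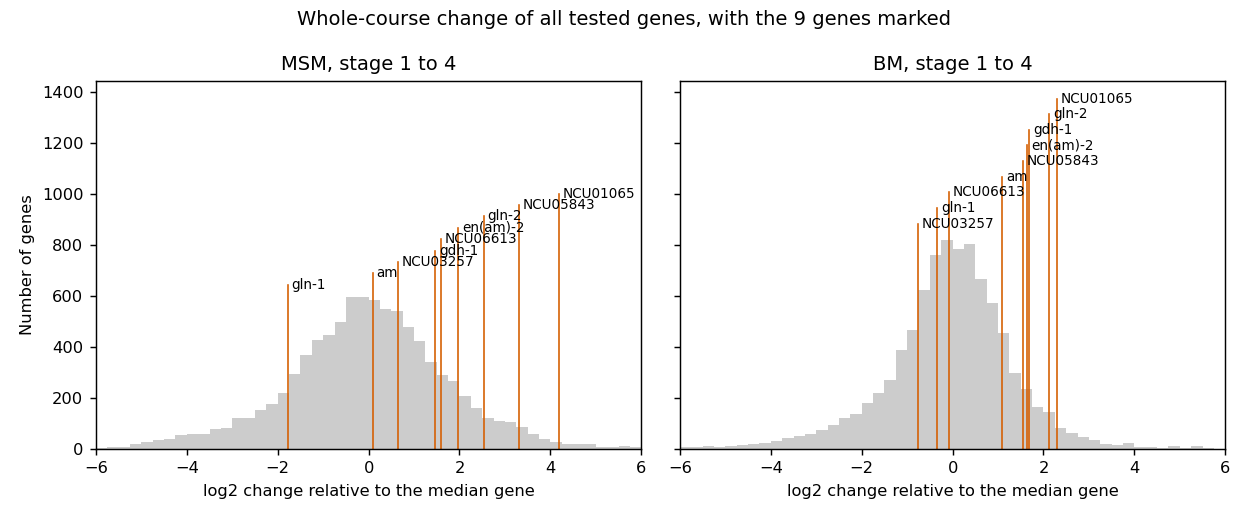
Histogram of the log2 change of all tested genes over the whole course (stage 4 over stage 1, relative to the median gene) on MSM (left) and BM (right), with the number of genes on the vertical axis and a line for each of the 9 genes. The lines run from -1.78 for gln-1 to 4.19 for NCU01065 on MSM and from -0.77 for NCU03257 to 2.29 for NCU01065 on BM; the heights of the lines only separate the labels.

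The gain was spread unevenly over the steps. In the first step, at stage 2 against stage 1, 7 genes were higher, 1 lower and 1 not called on MSM (all genes 36.2% higher and 36.0% lower), and on BM 7 were higher and 2 not called (30.1% higher, 31.1% lower). As deposited the BM count was 4 higher, 4 lower and 1 not called, where 8.1% of all genes were higher and 61.2% lower. In the second step MSM had 5 genes higher, 3 lower and 1 not called (34.4% higher, 32.0% lower), and BM had 6 higher and 3 lower (35.1% higher, 35.6% lower), or 6 higher, 2 lower and 1 not called as deposited (56.6% higher, 18.8% lower). In the third step MSM had 7 higher and 2 lower (34.1% higher, 33.7% lower), while BM had 3 higher, 4 lower and 2 not called (31.1% higher, 27.1% lower). As deposited 1 gene, gdh-1, was higher on BM in the third step and the other 8 were lower (10.9% higher, 56.7% lower). The counts on MSM were the same on both scales. The median of the 9 genes in the third step was 0.23 on the log2 scale on MSM and 0.01 on BM, relative to the median gene. None of the 9 changed at least 2-fold in that step on BM, where 8.9% of all genes did.

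The gene am (chromosome V, 3200862 to 3203095, build NC12) encodes the NADP glutamate dehydrogenase, the enzyme that assimilates ammonium into glutamate. On MSM its LOX level was 1, 1.60, 1.50 and 1.16 at stages 1 to 4, and on BM it was 1, 1.15, 2.66 and 1.74. The peak fell at stage 2 on MSM and at stage 3 on BM, and the level at stage 4 was below the peak on both. Over the whole course am rose by 0.09 ± 0.0029 in log2 (SE) on MSM and by 1.10 ± 0.0031 on BM. The whole-course change was the smallest in size of the 9 genes on MSM, where 52.2% of all tested genes lay below it, while on BM 83.9% lay below. At stage 2 against stage 1 am rose on both media, by 0.66 ± 0.0025 on MSM and 0.57 ± 0.0036 on BM. The next step separated the media, with a change of -0.06 ± 0.0021 on MSM and 0.79 ± 0.003 on BM.

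The gene gdh-1 (chromosome III, 3944102 to 3949450) encodes the NAD glutamate dehydrogenase. Its LOX level at stages 1 to 4 was 1, 1.91, 1.70 and 3.02 on MSM and 1, 1.96, 1.74 and 2.63 on BM. Both media gave the same order of stages, with a rise at stage 2, a lower level at stage 3 and the highest level at stage 4. Relative to the median gene the 3 consecutive steps were 0.91 ± 0.029, -0.13 ± 0.024 and 0.68 ± 0.020 on MSM and 1.34 ± 0.035, -0.58 ± 0.029 and 0.89 ± 0.025 on BM, all of them called. With SE multiplied by 3 the second step on MSM was not called. At stage 4 it was 2.76-fold higher than at stage 1 on MSM and 3.23-fold higher on BM.

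Because a shift common to all genes cancels between genes of 1 medium, the course of a pair can be read without any scaling. From stage 1 to 4 the ratio of gdh-1 to am grew 2.60-fold on MSM (log2 1.38, 95% interval 1.33 to 1.43) and 1.51-fold on BM (0.60, interval 0.53 to 0.66). The ratio differed most between media from stage 2 to 3, with a change of -0.07 on MSM and -1.38 on BM. From stage 3 to 4 its change was 1.20 on MSM and 1.21 on BM, and the difference of -0.01 had an interval of -0.07 to 0.05. These pairs were chosen with earlier results known and are given as descriptions, with no test.

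The gene en(am)-2 (chromosome II, 2567182 to 2576313) encodes glutamate synthase. Its LOX level at stages 1 to 4 was 1, 1.11, 3.39 and 4.29 on MSM and 1.15, 1, 3.35 and 2.93 on BM. Most of the rise on both media came at stage 3 against stage 2, by 1.64 ± 0.0072 on MSM and 1.33 ± 0.011 on BM. The steps before and after were small, at 0.14 ± 0.0091 and 0.19 ± 0.0041 on MSM and at 0.17 ± 0.013 and 0.10 ± 0.0061 on BM. On BM the deposited change of these small steps had the other sign, -0.20 for the first and -0.19 for the third. The ratio of en(am)-2 to am grew 3.70-fold over the whole course on MSM (log2 1.89, interval 1.87 to 1.90) and 1.47-fold on BM (0.55, interval 0.53 to 0.57). In the first step this ratio fell on both media, by 0.52 on MSM and by 0.41 on BM.

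Both glutamine synthetase genes moved apart. The gene gln-1 (chromosome V, 4393869 to 4397472) had LOX levels of 3.14, 2.48, 1.60 and 1 at stages 1 to 4 on MSM and of 1.56, 1.41, 1.29 and 1 on BM. It had its highest level in fresh conidia and its lowest at stage 4 on both media as deposited. The gene gln-2 (chromosome IV, 485244 to 488059) had levels of 1, 3.41, 4.86 and 6.31 on MSM and of 1, 1.21, 4.34 and 3.56 on BM. It was lowest at stage 1 on both media.

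Relative to the median gene gln-1 fell in every step on MSM, with changes of -0.36 ± 0.0028, -0.595 ± 0.0037 and -0.83 ± 0.0047. On BM its steps were 0.23 ± 0.0024, -0.54 ± 0.0027 and -0.07 ± 0.0031, and the first of them was -0.145 as deposited. At stage 4 gln-1 was 3.43-fold lower than at stage 1 on MSM and 1.26-fold lower on BM. For gln-2 the steps were 1.75 ± 0.010, 0.55 ± 0.0058 and 0.23 ± 0.0045 on MSM. On BM they were 0.65 ± 0.021, 1.425 ± 0.016 and 0.01 ± 0.0094, and the last was not called (95% interval -0.01 to 0.03) and was -0.29 as deposited. Its largest step thus came at stage 2 against stage 1 on MSM and at stage 3 against stage 2 on BM. By stage 4 gln-2 was 5.77-fold higher on MSM and 4.38-fold higher on BM.

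The ratio of gln-2 to gln-1 grew in every step on both media, and 19.8-fold over the whole course on MSM (log2 4.31, interval 4.29 to 4.33) against 5.53-fold on BM (2.47, interval 2.43 to 2.50). On MSM its steps were 2.11, 1.14 and 1.05 in log2, and on BM they were 0.42, 1.96 and 0.08. Since both levels are relative within their gene, the ratio shows how the balance moved and not which of these genes had more transcript.

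**Figure D2:**
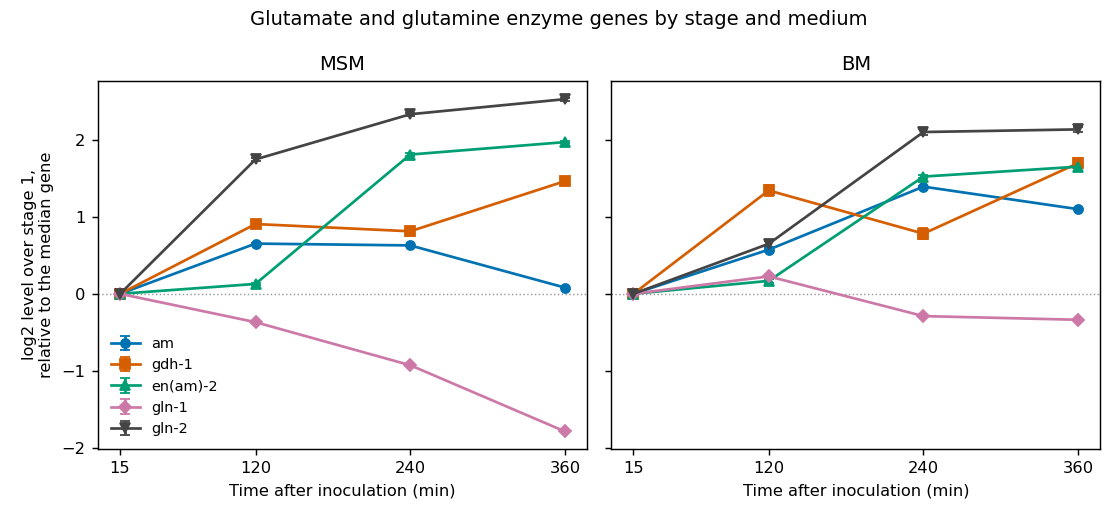
Log2 level of the 5 enzyme genes over their level at stage 1, relative to the median gene, against time after inoculation in minutes on MSM (left) and BM (right); bars are 95% intervals and are mostly smaller than the symbols. At 360 min gln-2 stands highest and gln-1 lowest on both media, and am lies near its starting level on MSM but above it on BM.

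**Figure D3:**
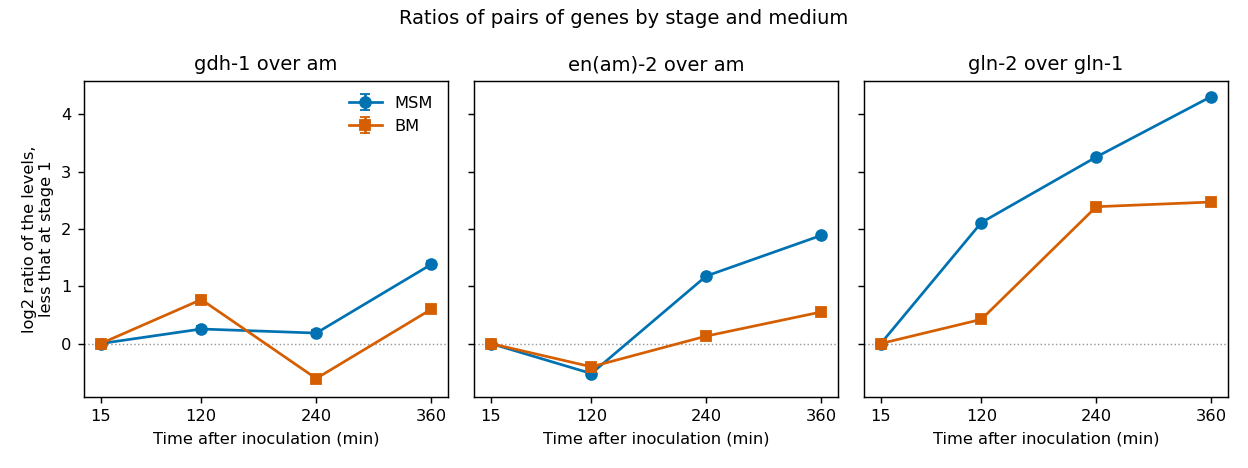
Log2 ratio of the levels of 3 pairs of genes, less that at stage 1, against time after inoculation in minutes on MSM (circles) and BM (squares), with 95% intervals. The ratio of gln-2 to gln-1 reaches 4.31 on MSM and 2.47 on BM at 360 min, and the ratio of en(am)-2 to am 1.89 on MSM and 0.55 on BM.

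Among the ammonium permease genes NCU01065 (chromosome V, 2806239 to 2808729) changed most. Its LOX level at stages 1 to 4 was 1, 4.86, 9.17 and 19.9 on MSM and 1, 2.54, 4.37 and 3.98 on BM. It rose relative to the median gene in all 3 steps on MSM, by 2.26 ± 0.016, 0.95 ± 0.0073 and 0.97 ± 0.0050. On BM it rose by 1.715 ± 0.018, 0.37 ± 0.012 and 0.16 ± 0.0093, and the last of these was -0.13 as deposited. Over the whole course the rise was 18.2-fold on MSM, above 98.8% of all tested genes, and 4.90-fold on BM, above 96.4%. Its gene model shares 17 bp with the neighbouring NCU01064, whose whole-course change was 1.80 on MSM and -0.65 on BM.

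NCU05843 (chromosome VII, 4026131 to 4028777) had LOX levels of 1, 2.26, 3.00 and 10.8 at stages 1 to 4 on MSM and of 1.33, 1, 3.85 and 3.17 on BM. The interval of the highest level ran from 10.6 to 11.0. On MSM the gene rose in each step, by 1.15 ± 0.066, 0.45 ± 0.046 and 1.70 ± 0.032, with the largest rise at the last, and the second was not called with SE multiplied by 3. On BM the only step called was the second, by 1.53 ± 0.091. The first was -0.04 (interval -0.25 to 0.17) and the third 0.02 (interval -0.09 to 0.13, and -0.28 as deposited). By stage 4 NCU05843 was 9.87-fold higher than at stage 1 on MSM and 2.94-fold higher on BM.

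NCU06613 (chromosome IV, 1806509 to 1809215) had LOX levels of 1.16, 1, 1.13 and 3.82 at stages 1 to 4 on MSM and of 1.72, 1, 2.18 and 1.32 on BM. On MSM the levels of the first 3 stages were close together, and no neighbours among them in the order of levels were called apart. The first step was -0.24 ± 0.0685 (interval -0.37 to -0.105) and the second 0.22 ± 0.069 (interval 0.08 to 0.35). It rose by 1.61 ± 0.052 at stage 4 against stage 3. On BM its second step was 0.71 ± 0.095 and the third -0.43 ± 0.083, both called but neither with SE multiplied by 3, and the whole course was -0.08 ± 0.091 (interval -0.26 to 0.095) and not called. The first step on BM was -0.41 ± 0.10 and not called, but as deposited it was -0.78 and called lower. Relative to the median gene, no pair of stages next to each other in the order of its BM levels was called apart. Its gene model shares 715 bp with NCU06614, the strand used in counting is not given in the sources used here, and reads of the shared stretch may count for either gene. NCU06614 changed by 0.08 ± 0.031 at stage 4 against stage 3 on MSM and by -0.04 ± 0.048 on BM, neither of them called. In other comparisons NCU06614 was called. Its first step on BM was -1.055 ± 0.036. Its whole-course change was -0.18 ± 0.028 on MSM and -1.405 ± 0.040 on BM. The whole-course difference of NCU06614, MSM minus BM, was 1.23 ± 0.048, of the same sign as that of NCU06613. How far shared reads bear on the values of NCU06613 was not tested.

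NCU03257 (chromosome I, 5097319 to 5100336) ran in opposite directions on the media. Its LOX level at stages 1 to 4 was 1, 1.30, 1.38 and 1.71 on MSM and 2.09, 1.69, 1.68 and 1 on BM. Stage 4 was thus the highest stage on MSM and the lowest on BM. Relative to the median gene it rose by 0.35 ± 0.0059, 0.13 ± 0.0053 and 0.16 ± 0.0045 in the 3 steps on MSM. On BM the steps were 0.065 ± 0.0060, -0.43 ± 0.0062 and -0.45 ± 0.0073. As deposited the first was -0.31 and the second -0.01, which was not called. From stage 1 to stage 4 the gene was 1.56-fold higher on MSM and 1.70-fold lower on BM.

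**Figure D4:**
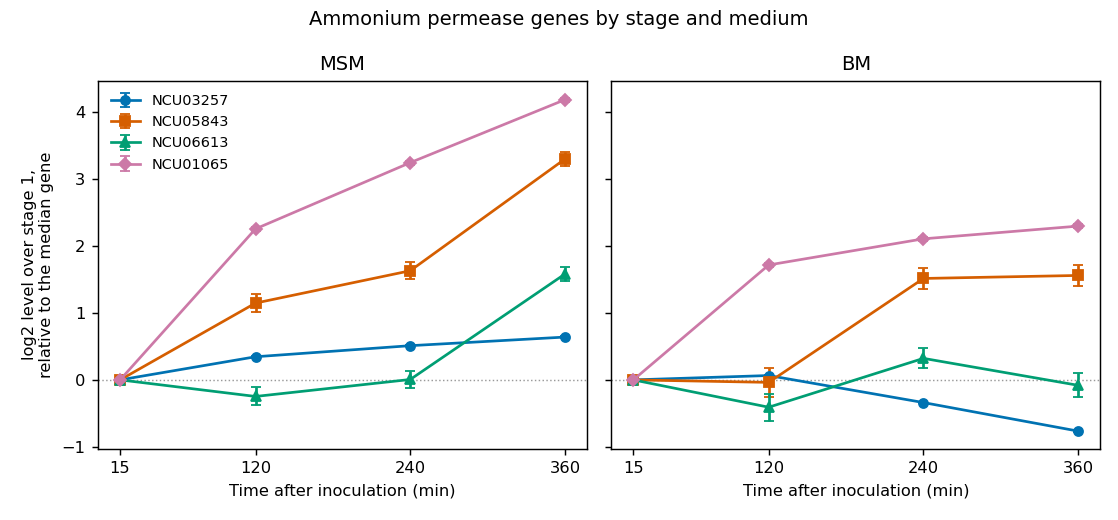
Log2 level of the 4 ammonium permease genes over their level at stage 1, relative to the median gene, against time after inoculation in minutes on MSM (left) and BM (right), with 95% intervals. At 360 min NCU01065 reaches 4.18 on MSM and 2.30 on BM, and NCU03257 lies above its start on MSM and below it on BM (the lines are scaled by the median gene of each stage, so they can differ slightly from the changes in the text).

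The change on MSM minus that on BM was tested for each gene and step. Over the whole course all 9 genes differed, with 6 changes higher and 3 lower on MSM, against 40.0% and 35.1% of all genes tested. As deposited 7 were higher and 2 lower (51.1% higher, 24.6% lower). The 4 permease genes were all among the higher ones, NCU01065 by 1.895 ± 0.022, NCU05843 by 1.75 ± 0.098, NCU06613 by 1.67 ± 0.10 and NCU03257 by 1.41 ± 0.0089. The lower ones were gln-1 with -1.44 ± 0.0050, am with -1.01 ± 0.0043 and gdh-1 with -0.23 ± 0.042, the last of which was 0.20 as deposited and not called with SE multiplied by 3. For en(am)-2 the difference was 0.33 ± 0.012 and for gln-2 it was 0.40 ± 0.020. Within all genes the 4 permeases stood above 84.4% to 90.8% of the whole-course differences, gln-1 above 14.3% and am above 21.3%.

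By step the pattern was mixed. At stage 2 against stage 1 there were 5 higher, 2 lower and 2 not called (all genes 34.6% higher, 31.6% lower), led by NCU05843 with 1.19 ± 0.13 and gln-2 with 1.10 ± 0.024. As deposited the count was 6 higher, 1 lower and 2 not called (55.2% higher, 15.7% lower). At stage 3 against stage 2 there were 4 higher, 4 lower and 1 not called (32.8% higher, 33.8% lower), or 2 higher, 6 lower and 1 not called as deposited (16.6% higher, 54.6% lower). In that step NCU05843 with a difference of -1.08 ± 0.10 and gln-2 with -0.88 ± 0.017 gained less on MSM than on BM, and am, with -0.85 ± 0.0037, gained on BM but not on MSM. With SE multiplied by 3 the differences of NCU05843 in both of these steps were not called. At stage 4 against stage 3 there were 6 higher and 3 lower (26.6% higher, 34.3% lower), or 8 higher and 1 lower, gln-1, as deposited (55.2% higher, 15.6% lower). All 4 permease genes were higher on MSM in this last step, NCU06613 by 2.03 ± 0.098, NCU05843 by 1.68 ± 0.064, NCU01065 by 0.81 ± 0.011 and NCU03257 by 0.61 ± 0.0086, and they kept that sign as deposited. The difference for NCU06613 exceeded that of 97.8% of all genes and that for NCU05843 exceeded 96.6%.

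**Figure D5:**
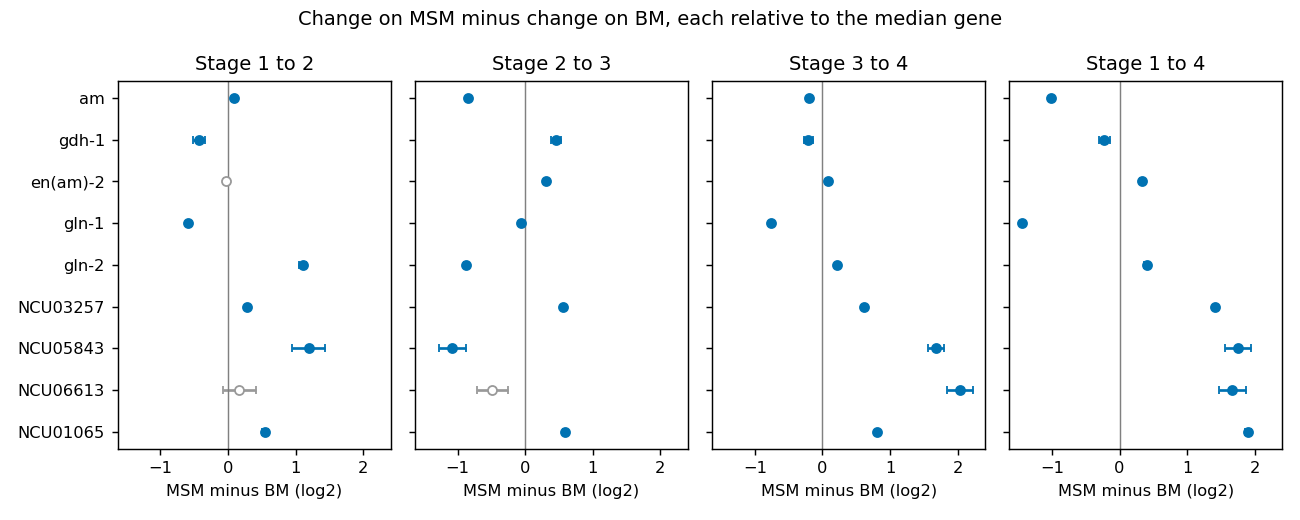
Log2 change on MSM minus that on BM for each of the 9 genes (rows) in the steps from stage 1 to 2, 2 to 3, 3 to 4 and over the whole course, with 95% intervals; filled points were called and open points were not. In the panel from stage 3 to 4 and in the whole course the 4 permease genes lie to the right of 0, up to 2.03 and 1.895.

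Some genes were called in opposite directions on the media in the same step. For gln-1 in the first step the change was -0.36 on MSM and 0.23 on BM, with -0.145 as deposited on BM. For am in the second step it was -0.06 on MSM and 0.79 on BM. For NCU03257 the changes in the second step, the third step and the whole course were 0.13, 0.16 and 0.645 on MSM and -0.43, -0.45 and -0.77 on BM, the first of these on BM not called as deposited. For NCU06613 in the third step they were 1.61 on MSM and -0.43 on BM. Opposite calls were made for 1, 2, 2 and 1 of the 9 genes in the 3 steps and the whole course, against 1495 of 8856, 1631 of 8807, 1536 of 8773 and 1725 of 8781 genes tested.

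Outside the set, the listed genes that use glutamine or glutamate went the other way from most of the 9 genes over the whole course. This does not hold for every gene whose enzyme uses them. Within the set en(am)-2, whose enzyme uses glutamine, rose by 1.97 on MSM and 1.65 on BM. Of the genes for glutamine synthetase, which uses glutamate, gln-2 rose and gln-1 fell on both media. A list of 6 genes covered enzymes, or subunits of them, that take the amide nitrogen of glutamine into other compounds. All 6 were lower at stage 4 than at stage 1 on both media. Their median was -2.82 on MSM and -1.42 on BM, where the median of all genes is 0. Of all genes 40.4% were lower on MSM and 38.4% on BM. The largest falls on MSM were in pyr-3, for pyrimidine synthesis, with -3.99 on MSM and -1.17 on BM, and in trp-2, for tryptophan synthesis, with -3.085 on MSM and -1.67 on BM. The arginine gene arg-3 changed by -2.87 on MSM and -1.685 on BM, and the tryptophan gene trp-1 by -2.78 on MSM and -2.27 on BM. Over the whole course the difference between the media was lower on MSM for all 6, with a median of -1.12 (35.1% of all genes lower), but for 5 of the 6 as deposited (24.6%). From stage 2 to 3 it went the other way, with 4 of the 6 higher on MSM, 2 lower and a median of 0.35. Of all genes 32.8% were higher and 33.8% lower in that difference. As deposited 3 of the 6 were higher and 3 lower (16.6% and 54.6% of all genes). By step the counts of the 6 genes on MSM were 5, 6 and 6 lower and none higher. On BM they were 3, 5 and 5 lower, with 1 higher in the first step. Shares of all genes called lower in these steps were 36.0%, 32.0% and 33.7% on MSM and 31.1%, 35.6% and 27.1% on BM. As deposited 1 of the 6 was higher in the first step on MSM, where 37.4% of all genes were. On BM 6, 5 and 6 were lower as deposited, with 1 higher in the second step. Shares of all genes on BM as deposited were 61.2%, 18.8% and 56.7% lower, and 56.6% higher in the second step.

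Of 6 genes that use glutamate for arginine, proline or gamma-aminobutyrate, all 6 were lower at stage 4 on both media, with a median of -1.77 on MSM and -0.96 on BM, where 40.4% of all genes were lower on MSM and 38.4% on BM. The glutamate decarboxylase gene NCU06112, whose product makes gamma-aminobutyrate, had a whole-course change of -4.67 on MSM and -3.535 on BM. It fell by 3.63 in the first step on MSM and by 0.98 on BM, and on BM its larger fall of 2.17 came at stage 3 against stage 2. The arginine gene arg-6 changed by -2.04 on MSM and -1.18 on BM, and the proline genes pro-3 and pro-4 by -1.97 and -1.56 on MSM and by -1.16 and -0.77 on BM. In the whole-course difference between the media 5 of the 6 were lower on MSM, against 35.1% of all genes, and 1, arg-14, was higher by 0.23 ± 0.028. From stage 2 to 3 it went the other way, with 5 higher on MSM, none lower and a median of 0.38. Of all genes 32.8% were higher and 33.8% lower in that difference. As deposited only 2 of the 6 were higher and 3 were lower (16.6% and 54.6% of all genes). The members and lists were chosen with earlier results of these data known, so no test of a list as a whole is given.

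The genes with a symbol whose 8 centred log2 levels, 4 stages on each of 2 media, lay nearest to those of each of the 9 genes were found among 1099 genes. The distance is the root mean square difference in log2, and it describes likeness over 8 pooled values that share their libraries. For NCU06613 and most others of the 9 genes, most of the nearest genes changed when Pearson's r replaced this distance. The nearest to NCU06613 were nuo9.8, nuo21.3a and nuo24, subunits of respiratory complex I, at distances of 0.19, 0.20 and 0.22. Nearest to NCU01065 were hex-1, the gene of the Woronin body protein, at 0.34, then pdx-4 and vma-7. For NCU05843 they were rpn-5, vma-10 and nde-3, from 0.28 to 0.30, and for NCU03257 sub-1, prk-8 and qa-Y, from 0.095 to 0.099. Among the enzymes am was nearest to uvs-3 at 0.15, with mus-26 and ace-4 next, and gdh-1 to col-20 at 0.28, with ncw-2 and asl-1 next. For en(am)-2 they were nde-3, trx and camk-4, from 0.265 to 0.29. For gln-1 they were un-10, stk-53 and mip-1, from 0.12 to 0.14. For gln-2 they were fpp, the histone H4 gene hH4-1 and csn-4, from 0.17 to 0.19.

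Within the set the same 8 values gave the nearest pair in en(am)-2 and gln-2, at 0.44 (Pearson's r = 0.89), followed by gln-2 and NCU05843 at 0.46 (r = 0.89) and en(am)-2 and NCU05843 at 0.46 (r = 0.89). The farthest pair was gln-1 and NCU01065 at 1.71 (r = -0.83), and the most negative correlation was that of gln-1 and NCU05843 (r = -0.95). These correlations are descriptions over 8 values.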

How the data were processed

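RNA was sequenced from 24 libraries made with a stranded kit. Reads were trimmed by the authors, aligned to the OR74A genome with TopHat2 2.0.12, tallied over exons with HTSeq 0.6.1p1 where they mapped uniquely, and merged across replicates by LOX. Each deposited value is a ratio to the lowest stage of the gene on that medium (set to 1), and further deposited columns give how far each 95% bound lies below or above it. The tables hold no columns of fold changes or p-values between stages. Columns numbered 1 to 4 were assigned to the stages in the order of their numbers.

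The SE of a log2 level was the log2 width of its interval divided by that of a standard normal 95% interval. Log2 ratios of a pair of stages, centred on the median gene, went into a two-sided z test with Bonferroni adjustment over all genes tested (8773 to 9026 per comparison). Stages were treated as independent. The change on MSM minus that on BM was tested likewise. Levels with a value or lower bound not above 0 were left out, and 9418 genes on MSM and 9395 on BM had a level above 0. The procedure was tested on simulated data before use. Alternatives were the deposited scale, a minimum change of 2-fold, Benjamini-Hochberg adjustment at 0.05, SE multiplied by 3, SE from the wider arm of the interval, only genes with SE under 0.25, only genes with intervals above 0 throughout, and Pearson's r for likeness.

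All 9 genes are named. Genes of the lists are named where called, up to 4 per list with the largest change, and a further named gene, arg-14, is the exception among the glutamate users. For likeness the 3 nearest genes with a symbol are named. NCU06614 and NCU01064 are named because they overlap genes of the set. The members and lists were chosen with earlier results of these data known. Of 9730 identifiers, 9729 matched the gene reference, of assembly NC12, which gives 1118 symbols. The list entry nmr-1 found no match. Computations used SciPy 1.17.1, pandas 2.3.3 and numpy 2.4.6 under Python 3.11.15, and plots matplotlib 3.10.9.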

Additional observations from a re-analysis of the deposited data

Results flagged for a closer look

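These results are listed because the change of a gene on MSM differed from that on BM by the test of the difference itself (two-sided z test on log2 changes relative to the median gene, Bonferroni adjusted p below 0.01 over all genes). All values are MSM minus BM in log2. Of 36 such tests, 33 were called, and their largest adjusted p was 0.00049. Of all genes 66.2%, 66.5%, 60.9% and 75.1% were called in either direction in the 3 steps and the whole course.

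At stage 2 against stage 1 the differences were 0.086 for am, -0.427 for gdh-1, -0.586 for gln-1, 1.102 for gln-2, 0.288 for NCU03257, 1.192 for NCU05843 and 0.547 for NCU01065. At stage 3 against stage 2 they were -0.853 for am, 0.453 for gdh-1, 0.312 for en(am)-2, -0.056 for gln-1, -0.877 for gln-2, 0.556 for NCU03257, -1.081 for NCU05843 and 0.586 for NCU01065.

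At stage 4 against stage 3 they were -0.198 for am, -0.208 for gdh-1, 0.09 for en(am)-2, -0.754 for gln-1, 0.219 for gln-2, 0.612 for NCU03257, 1.68 for NCU05843, 2.034 for NCU06613 and 0.807 for NCU01065. Over the whole course they were -1.008 for am, -0.226 for gdh-1, 0.326 for en(am)-2, -1.44 for gln-1, 0.4 for gln-2, 1.412 for NCU03257, 1.746 for NCU05843, 1.67 for NCU06613 and 1.895 for NCU01065.

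The differences of gln-2 and NCU05843 were positive in the first and the third step and negative in the second, while those of NCU03257 and NCU01065 were positive in all 3. On the deposited scale the differences of gdh-1 were -0.036 from stage 1 to 2 and 0.0 from stage 2 to 3, and neither was called; with SE multiplied by 3 neither was called either (adjusted p of 1 and 0.55). Differences that change sign on the deposited scale are given with the dependence on processing.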

How the results depend on the processing

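Of 108 changes and differences of the 9 genes, 91 kept their direction and side of the threshold on the deposited scale, 3 lost and 2 gained a call and 12 reversed. The calls lost were gdh-1 in MSM minus BM (-0.036 from stage 1 to 2 and 0.0 from stage 2 to 3) and NCU03257 on BM (-0.012 from stage 2 to 3). Both calls gained were for NCU06613, on BM (-0.779 from stage 1 to 2) and in MSM minus BM (-0.942 from stage 2 to 3). On BM the reversed values from stage 1 to 2 were -0.203 for en(am)-2, -0.145 for gln-1 and -0.306 for NCU03257, and from stage 3 to 4 -0.194 for en(am)-2, -0.289 for gln-2, -0.278 for NCU05843 and -0.133 for NCU01065. For MSM minus BM they were 0.36 (stage 1 to 2) and -0.141 (stage 2 to 3) for en(am)-2, 0.249 for am and 0.239 for gdh-1 (stage 3 to 4), and 0.203 for gdh-1 (stage 1 to 4). These follow from the shift of the median gene. No change on MSM alone reversed.

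Benjamini-Hochberg adjustment kept 104 of 108 and added 4 calls, SE multiplied by 3 kept 94 and lost 14, and the wider arm, SE under 0.25 and intervals above 0 throughout changed none. Under a 2-fold minimum 63 calls were lost. It left 3, 1 and 2 of the 9 genes called in the 3 steps on MSM, 2, 3 and 0 on BM, and 2, 1 and 2 in the difference, since that rule asks for a larger change. With SE multiplied by 3 the number called in the difference from stage 2 to 3 was 5. With Pearson's r in place of the distance, at most 1 of the 3 genes most like am, gdh-1, en(am)-2, gln-1, gln-2, NCU05843 and NCU06613 was the same.

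No paired analysis was possible because the deposited values pool the 3 replicates, and no replicate was left out in turn, as the tables hold 1 value per stage. The p-values rest on interval widths, so replicate spread beyond them is not covered, and precision is lowest for NCU05843 and NCU06613.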

Other observations

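Of 4 symbols listed for regulators of nitrogen genes, 3 matched the gene reference. The GATA factor gene nit-2, which activates nitrogen catabolic genes, had a whole-course log2 change of -0.03 ± 0.0098 on MSM, which was not called, and of -0.28 ± 0.0096 on BM. The gene nmr, whose product represses NIT2, had 0.05 ± 0.011 on MSM, not called, and 0.345 ± 0.013 on BM. The nitrate pathway activator gene nit-4 fell on both media, by 1.37 on MSM and by 1.46 on BM, and the difference of 0.09 ± 0.046 between them was not called. In the first step nmr changed by -0.17 ± 0.012 on MSM and by 0.40 ± 0.014 on BM, and both were called. On the deposited scale nit-2 and nmr were called higher over the whole course on MSM (0.10 and 0.18), and nmr was not called on BM, either over the whole course (0.045) or in the first step (0.03). There the whole-course difference of nit-4 was 0.515 and called.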
